A study of Mus musculus with 10 samples.

Results

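Interleukin-1 (IL-1) family cytokines, their antagonists and their receptors were examined in bulk RNA-seq of mouse peritoneal macrophages. The genes were picked by symbol, not by a threshold on their values, and comprised 10 of the 29700 gene rows in the deposited count table: the ligands Il1a, Il1b, Il18 and Il33, the antagonists Il1rn and Il18bp, and the receptors Il1r1, Il1r2, Il1rap and Il1rl1. The cells came from C57BL/6 mice of 8 weeks and were collected from the peritoneal cavity on day 3 after thioglycollate, an irritant that draws monocytes into the cavity, where they mature into macrophages. In the ox-LDL group (5 libraries), cells were primed with LPS (100 ng/ml), a bacterial product, and then given oxidized low-density lipoprotein (ox-LDL, 100 µg/ml) for 16 h, and the control group (5 libraries) is labelled as untreated. The protocol fields of every sample mention ox-LDL, and the wording of the study leaves it unclear whether the controls also received LPS. The group labels were followed, so the effects of LPS and of ox-LDL cannot be told apart. The libraries of a group are described as biological replicates, but no source says whether each came from a mouse of its own, and p-values measure the spread between these libraries only.

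IL-1α (Il1a) and IL-1β (Il1b) signal through IL-1 receptor 1 (Il1r1) together with the shared accessory protein IL-1RAP (Il1rap), which recruits MyD88 and IRAK kinases and activates NF-kB. IL-1 receptor antagonist (Il1rn) occupies the same receptor without signalling, IL-1 receptor 2 (Il1r2) is a decoy that lacks a signalling domain, and IL-18 binding protein (Il18bp) captures IL-18. IL-33 signals through ST2 (Il1rl1) and also needs IL-1RAP. In macrophages, Il1a and Il1b are classical LPS-inducible genes, and IL-1β and IL-18 are released as active cytokines after cleavage by caspase-1.

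Depth was nearly even, with 20094647 to 20687289 estimated counts per control library and 19257131 to 20358017 per ox-LDL library. The macrophage label was checked with 8 marker genes, all of them found in the table. Their summed level was 23168 to 42854 CPM (counts scaled to a common library size) in the controls and 13363 to 28376 CPM in the ox-LDL libraries. Lyz2 made up most of this sum, with 20597 to 40915 and 9361 to 26340 CPM. Adgre1 (179 to 344 and 408 to 1961 CPM) and Cd14 (77.2 to 105 and 199 to 693 CPM) were higher in all ox-LDL libraries than in all controls. The other markers, Lyz2 among them, overlapped between the groups. In edgeR's quasi-likelihood test over the 12654 genes kept by a filter on low counts, 1189 genes (9.4%) were higher and 677 (5.35%) were lower in the ox-LDL group at a Benjamini-Hochberg adjusted p below 0.01, the threshold used throughout for a call. By contrast, limma on log2(FPKM + 1), over the 10470 genes kept by a filter on FPKM, gave 570 higher and 769 lower. The median log2 fold change of all genes tested was 0.10, or -0.09 with scaling by library size alone and -0.14 in the limma fit. Ox-LDL replicate 2 stood apart, with a TMM scaling factor of 0.593 (range of the remaining libraries 0.837 to 1.19, lowest for ox-LDL replicate 5). Its deviation from the group mean had the most negative trend on gene length (Spearman correlation -0.647). Control replicates 1 and 4 also had negative trends (-0.573 and -0.463), against 0.0571 to 0.517 in the remaining libraries. Both libraries numbered 5 stood apart for Il1b. Results that rested on ox-LDL replicate 2 or on the libraries numbered 5 are given with and without them.

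Of the 10 family genes, Il1r2 and Il1rl1 did not pass the filter on low counts. Il1a, Il1rn and Il18bp were called higher in the ox-LDL group, Il1rap was called lower, and Il1b, Il18, Il33 and Il1r1 were not called. With a log2 fold change beyond 2 also required, Il1a, Il1rn and Il18bp were still called, as were 4.78% of all genes tested in that direction, and Il1rap was not (1.93% of all genes lower). At an adjusted p below 0.05 instead, Il1b and Il33 passed as well, where 16.2% of all genes were higher and 10.4% lower. The groups did not overlap for 6 family genes: all ox-LDL libraries lay above all controls for Il1a, Il1b, Il33, Il1rn and Il18bp, against 11.6% of all genes tested, and below them for Il1rap, against 9.11%. Levels of single genes are given below as TMM-normalized CPM unless stated otherwise.

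**Figure D1:**
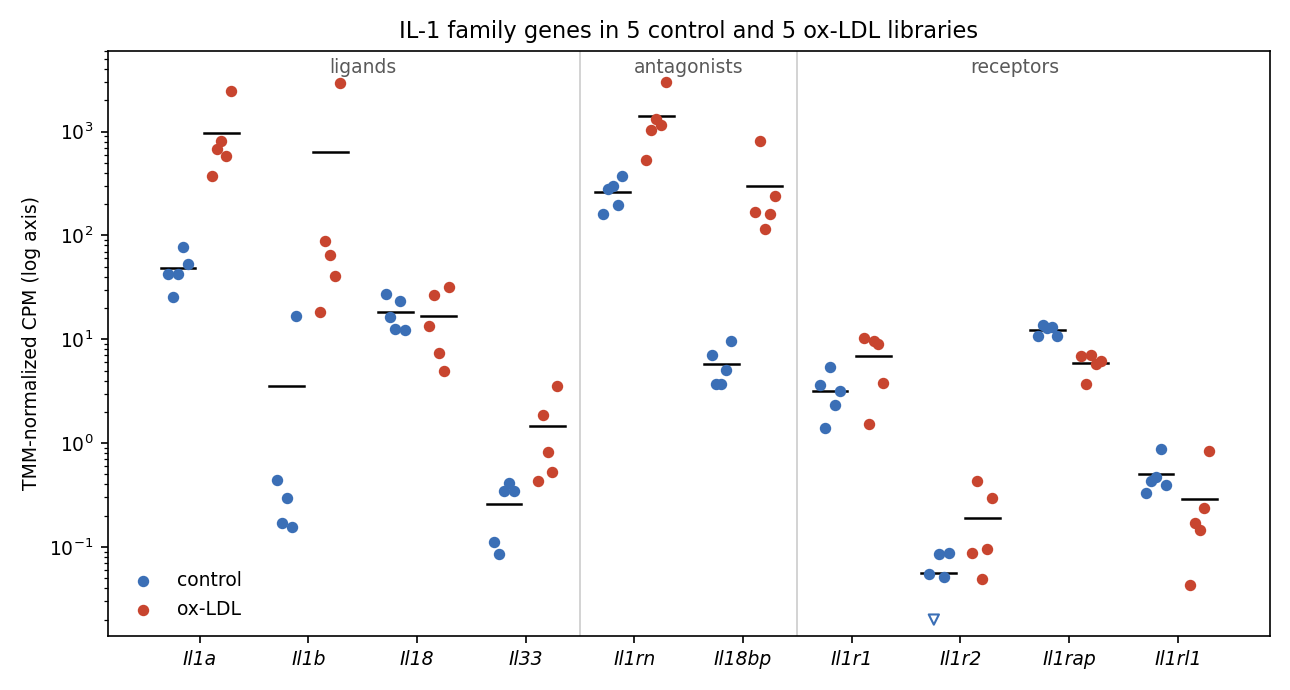
TMM-normalized CPM (log axis) of the 10 family genes, 1 point per library (blue, control; red, ox-LDL), with horizontal lines at the group means; the open triangle marks a library without a count. The ox-LDL points of Il1a, Il1rn and Il18bp lie above all control points, those of Il1rap lie below, and 1 library of each group stands far above its group for Il1b (16.8 and 2957 CPM).

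The genes lie at several loci of the mouse genome. In mm9 coordinates, Il1a (NCBI gene 16175) spans chr2:129125346-129135708 and Il1b (16176) spans chr2:129190306-129196875, both on the minus strand, and Il1rn (16181) lies on the plus strand of the same chromosome at chr2:24192373-24207014. The receptor genes other than Il1rap share a stretch of the plus strand of chromosome 1, with Il1r2 (16178) at chr1:40141613-40182064, Il1r1 (16177) at chr1:40281925-40373043 and Il1rl1 (17082) at chr1:40486415-40522260. Il18bp (16068) is at chr7:109163593-109166669 on the minus strand, Il18 (16173) at chr9:50383378-50389942, Il33 (77125) at chr19:29999604-30035194 and Il1rap (16180) at chr16:26581790-26730203, these 3 on the plus strand. The spans of Il1a, Il1b, Il1r2 and Il1rap overlap an annotated gene on the opposite strand. No source says whether counting used the strand, so reads from any shared transcribed bases may not be told apart from those of that gene. Overlap of exons was not examined.

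The promoters of Il1a, Il1b, Il1rn and Il18bp are shown because all ox-LDL libraries lay above all controls for these genes, and because each was well above the detection limit in the ox-LDL group. RefSeq held promoters for all 10 genes (GRCm38.p6, 250 bases before to 50 bases after each start). Capitals mark letters that match 1 of 5 searched motifs on either strand. These were TATAAA for the TATA box, TGANTCA for AP-1 and TTNNGCAA for C/EBP, together with an NF-kB motif of GGG, 3 free bases and TTCC, and an interferon response motif of GAAA, 2 free bases and GAAA. The printed windows are chr2:129309923-129310222 (minus strand) for Il1a, chr2:129371090-129371389 (minus) for Il1b, chr2:24336610-24336909 (plus) and chr2:24345121-24345420 (plus) for start sites 1 and 3 of the 3 that Il1rn has, and chr7:102018183-102018482 (minus) for Il18bp.
Il1a: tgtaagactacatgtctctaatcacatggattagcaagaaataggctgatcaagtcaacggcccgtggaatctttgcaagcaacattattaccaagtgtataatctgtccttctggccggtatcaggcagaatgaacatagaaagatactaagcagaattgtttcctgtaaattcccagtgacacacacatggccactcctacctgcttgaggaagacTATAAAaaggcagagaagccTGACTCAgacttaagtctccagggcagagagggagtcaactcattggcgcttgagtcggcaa
Il1b: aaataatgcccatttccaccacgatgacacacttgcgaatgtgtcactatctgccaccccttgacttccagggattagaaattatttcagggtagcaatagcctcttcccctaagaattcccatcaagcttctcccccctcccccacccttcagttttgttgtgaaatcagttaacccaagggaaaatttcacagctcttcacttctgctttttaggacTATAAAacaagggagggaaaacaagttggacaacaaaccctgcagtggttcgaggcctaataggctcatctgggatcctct
Il1rn, start site 1: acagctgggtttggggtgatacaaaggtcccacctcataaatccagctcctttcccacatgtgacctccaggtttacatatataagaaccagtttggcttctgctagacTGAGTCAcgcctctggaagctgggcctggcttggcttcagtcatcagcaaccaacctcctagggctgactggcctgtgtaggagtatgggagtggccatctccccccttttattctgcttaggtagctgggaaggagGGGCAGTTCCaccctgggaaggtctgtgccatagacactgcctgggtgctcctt
Il1rn, start site 3: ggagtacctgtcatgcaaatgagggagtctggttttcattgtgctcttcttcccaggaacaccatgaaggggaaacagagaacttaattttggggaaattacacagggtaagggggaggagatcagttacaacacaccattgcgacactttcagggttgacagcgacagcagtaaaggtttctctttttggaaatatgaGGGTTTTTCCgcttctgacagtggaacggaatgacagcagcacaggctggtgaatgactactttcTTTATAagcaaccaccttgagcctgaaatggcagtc
Il18bp: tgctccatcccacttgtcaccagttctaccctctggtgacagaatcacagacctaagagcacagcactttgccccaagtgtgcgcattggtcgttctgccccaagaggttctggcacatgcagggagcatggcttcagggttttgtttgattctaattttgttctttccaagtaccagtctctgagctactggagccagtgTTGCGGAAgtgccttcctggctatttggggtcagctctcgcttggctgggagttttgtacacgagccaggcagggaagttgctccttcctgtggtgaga

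Il1a and Il1b both held TATAAA just upstream of the start, at -32 to -27 and at -31 to -26, a motif found somewhere in 13.6% of the 32544 mouse promoters of this length. Il1a also held TGACTCA at -12 to -6 (TGANTCA in 7.79% of promoters). Il1rn held GGGCAGTTCC across start site 1 and GGGTTTTTCC at -51 to -42 of start site 3, matches to the NF-kB motif found in 5.56% of promoters. Start site 1 also held TGAGTCA at -141 to -135, and start site 3 held TTTATA, the reverse complement of the TATA box, downstream at 15 to 20. In Il18bp the match was TTGCGGAA at -49 to -42, the reverse complement of TTNNGCAA, which 10.8% of promoters hold. The interferon response motif, held by 3.45% of promoters, was found among the 10 genes in Il1rap alone, at 21 to 30 after the start. Genes that were not called or not tested also held motifs: NF-kB in Il1r1, C/EBP in Il33, Il1r1 and Il1rl1, and the TATA box in Il18 and Il33. The percentages are per promoter, whereas Il1rn was searched at 3 start sites. A match of letters is a description and not evidence of binding.

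Il1a, which encodes the precursor of IL-1α, was upregulated 20.3-fold in the ox-LDL group. Its level was 43.0, 25.5, 42.7, 77.2 and 53.0 CPM in control replicates 1 to 5. In ox-LDL replicates 1 to 5 it was 375, 678, 812, 583 and 2445 CPM. The lowest ox-LDL library thus lay well above the highest control, and ox-LDL replicate 5 was far above the next library. The means were 48.3 ± 18.9 (SD, n = 5) and 979 ± 835 CPM (SD, n = 5), a log2 fold change of 4.34 ± 0.55 (SE) with a 95% interval of 3.14 to 5.54 (edgeR quasi-likelihood test, adjusted p = 1.87e-04). Without ox-LDL replicate 5 the log2 fold change was 3.66 (adjusted p = 1.16e-04). In bulk RNA, fewer cells that express a gene and less of its RNA per cell cannot be told apart, here and for every gene below.

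Il1b, which encodes the IL-1β precursor, had the largest fitted fold change of the family and the widest spread. Control replicates 1 to 4 held 0.443, 0.171, 0.300 and 0.155 CPM (3 to 8 counts), whereas control replicate 5 held 16.8 CPM (387 counts). The ox-LDL libraries held 18.3, 88.0, 65.1, 40.2 and 2957 CPM. The lowest ox-LDL library lay just above control replicate 5, so the groups did not overlap, but within each group the library numbered 5 was more than 30 times higher than the next. With all 10 libraries the means were 3.58 ± 7.40 and 634 ± 1299 CPM (SD, n = 5 each), the log2 fold change was 7.46 ± 2.03 (SE; 95% interval 3.03 to 11.89), and the gene was not called (edgeR, adjusted p = 0.0180). Without both libraries numbered 5, the means were 0.267 ± 0.134 and 52.9 ± 30.2 CPM (SD, n = 4 each), and the log2 fold change was 7.56 (edgeR, adjusted p = 8.26e-05). Leaving out control replicate 5 alone gave 11.20 (adjusted p = 0.00332) and leaving out ox-LDL replicate 5 alone gave 3.89 (adjusted p = 0.0512). Neutrophil markers, of which 10 of 12 were found, summed to 19.4 to 45.0 CPM in the controls and 24.4 to 92.4 CPM in the ox-LDL libraries, led by S100a8 and Mmp8, with Mpo, Elane and Ngp at no more than 0.266 CPM in any library. S100a8 was 12.9 CPM in control replicate 5 (6.35 to 13.0 in the controls) and 53.3 CPM in ox-LDL replicate 5 (12.9 to 90.2 in its group), and Mmp8 was 19.5 CPM (5.33 to 37.1) and 6.64 CPM (1.37 to 10.7), so neither was highest in the libraries numbered 5. Picked after their values were seen, the low markers S100a9 and Retnlg did follow these libraries. S100a9 had counts in the libraries numbered 5 alone (0.400 CPM in the control and 0.250 CPM in the ox-LDL library), and Retnlg was at 2.05 and 1.35 CPM in them and at no more than 0.102 CPM elsewhere. Cxcr2 and Ltf, also low, did not follow them. In control replicate 5 they were at 0.501 CPM (0.303 to 0.660 in the controls) and 0.651 CPM (0.394 to 1.57). In ox-LDL replicate 5 both were at 0.0499 CPM. Cxcr2 and Ltf were lower in the ox-LDL group without overlap, whereas Camp was higher without overlap and highest in ox-LDL replicate 5 (0.799 CPM). The part of neutrophils in the Il1b level was not tested.

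Il18, whose product is an interferon-γ-inducing cytokine, was not called, and its values overlapped. It ranged from 12.3 to 27.5 CPM in the controls and from 4.98 to 32.2 CPM in the ox-LDL libraries, with means of 18.3 ± 6.75 and 16.9 ± 12.0 CPM (SD, n = 5 each). The log2 fold change was -0.12 ± 0.47 (SE), and its 95% interval of -1.14 to 0.90 left room for a change of about 2-fold in either direction (edgeR, adjusted p = 0.886).

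Il33, which encodes a nuclear alarmin best known from epithelial and stromal cells, was near the detection limit in the controls. It had 2, 1.99, 8, 8 and 8 estimated counts in the controls and 10, 22, 17, 11 and 60 in the ox-LDL libraries, of which replicate 5 was the highest. The means were 0.260 ± 0.150 and 1.45 ± 1.32 CPM (SD, n = 5 each), with a log2 fold change of 2.43 ± 0.67 (SE) that was not called (edgeR, adjusted p = 0.0191) and was 1.75 without ox-LDL replicate 5 (adjusted p = 0.0567). In FPKM, the deposited length-scaled level, the groups overlapped, with 0.17 to 0.53 in the controls and 0.23 to 1.88 in the ox-LDL libraries. This overlap depended on the Il33 length that counts divided by FPKM gave, which varied widely between libraries. In ox-LDL replicate 4, 11 counts gave 0.23 FPKM at a length of 2484 bases. In control replicate 1, 2 counts gave 0.40 FPKM at 248 bases. All 14 mesothelial, stromal and endothelial markers were found, and their sum was 19.0 to 64.0 CPM in the controls and 67.7 to 181 CPM in the ox-LDL libraries, without overlap. Dcn, a fibroblast proteoglycan, led this sum with 10.7 to 35.8 and 53.1 to 98.0 CPM, whereas the mesothelial marker Msln did not exceed 0.319 CPM. At low levels, the endothelial marker Pecam1 was also higher without overlap, and the mesothelial marker Upk3b was lower without overlap. The other markers of this list, the collagen genes among them, overlapped between the groups. The part of mesothelial, stromal and endothelial cells in the Il33 level was not tested.

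Both antagonists were upregulated. Il1rn was the most abundant family gene by FPKM in all 5 controls, at 162, 277, 299, 196 and 370 CPM. It reached 533, 1031, 1317, 1161 and 2998 CPM in ox-LDL replicates 1 to 5, the lowest of which lay above the highest control. The means were 261 ± 83.5 and 1408 ± 936 CPM (SD, n = 5 each), a 5.40-fold difference with a log2 fold change of 2.43 ± 0.44 (SE; edgeR, adjusted p = 0.00170).

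Il18bp had the largest fold change of the genes called. Its controls held 7.08, 3.68, 3.68, 5.10 and 9.56 CPM. Its ox-LDL libraries held 168, 808, 116, 160 and 242 CPM, so the lowest of them was more than 10 times the highest control, and ox-LDL replicate 2 stood above the rest. The means of 5.82 ± 2.51 and 299 ± 288 CPM (SD, n = 5 each) gave a 51.3-fold difference, a log2 fold change of 5.68 ± 0.62 (SE) with a 95% interval of 4.32 to 7.04 (edgeR, adjusted p = 7.39e-05). Without ox-LDL replicate 2 the log2 fold change was 4.84 (adjusted p = 2.91e-06). Il1a, Il1rn and Il18bp were called in each of the 22 alternatives of the fit.

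**Figure D2:**
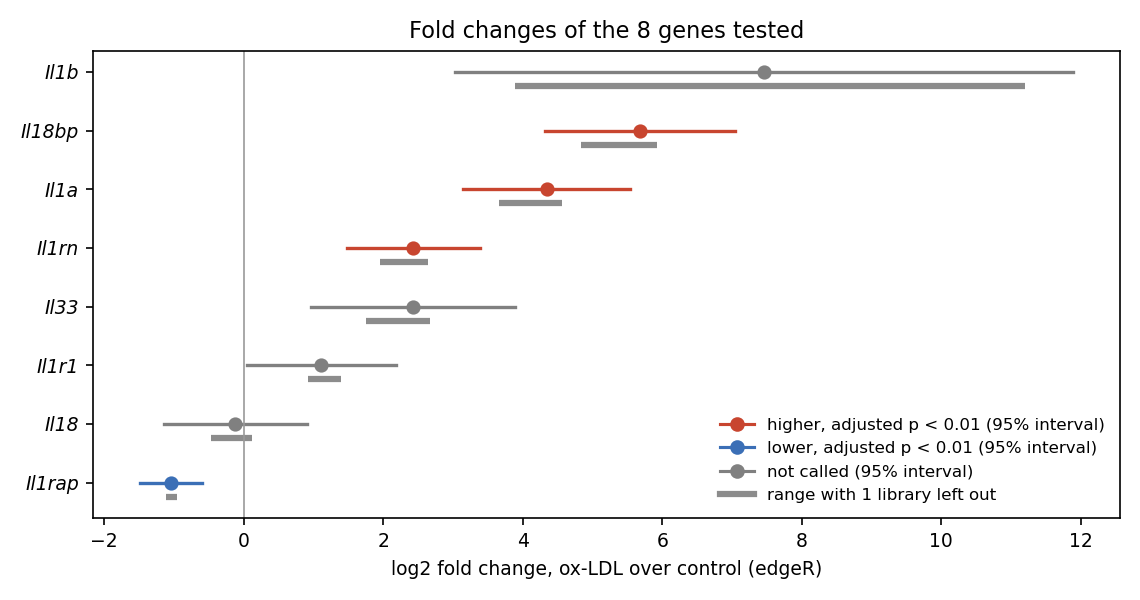
Log2 fold change (ox-LDL over control, edgeR) of the 8 family genes tested, as points with 95% intervals (red, called higher; blue, called lower; grey, not called), above thick grey bars that span the values with 1 library left out. Il1b has the widest interval (3.03 to 11.89) and Il1rap the narrowest (-1.49 to -0.60).

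Among the receptors, Il1rap was downregulated. Its level was 10.8, 13.9, 12.8, 13.0 and 10.7 CPM in the controls and 6.83, 3.68, 7.02, 5.84 and 6.15 CPM in the ox-LDL libraries, all of them below the lowest control. The means were 12.2 ± 1.41 and 5.90 ± 1.33 CPM (SD, n = 5 each), so Il1rap was 2.06-fold lower, with a log2 fold change of -1.05 ± 0.20 (SE; edgeR, adjusted p = 0.00266). It was called with any 1 library left out (highest adjusted p 0.00970), but not with scaling by library size alone (log2 fold change -1.16, adjusted p = 0.0264) or in limma on log2(FPKM + 1) (-0.78, adjusted p = 0.0159). Dividing counts by FPKM gave a length of 3069 bases for Il1rap in ox-LDL replicate 2 and of 3771 to 4209 bases in the other libraries.

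Il1r1, the signalling receptor, was not called, and its groups overlapped. It held 3.60, 1.41, 5.43, 2.32 and 3.17 CPM in the controls and 10.3, 1.54, 9.61, 9.09 and 3.82 CPM in the ox-LDL libraries, of which replicates 1, 3 and 4 lay above all controls. The log2 fold change was 1.11 ± 0.49 (SE; 95% interval 0.05 to 2.18; edgeR, adjusted p = 0.113), and without ox-LDL replicate 2 the adjusted p was 0.0158.

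The other receptors were near the detection limit. The decoy receptor gene Il1r2 had 1, 0, 2, 1 and 2 counts in the controls and 2, 5, 1, 2 and 5 in the ox-LDL libraries, where 3 counts corresponded to 0.128 to 0.257 CPM, and no fold change is given. Il1rl1, the IL-33 receptor gene, had 6, 10, 11, 17 and 9 counts in the controls against 1, 2, 3, 5 and 14 in the ox-LDL libraries, so only ox-LDL replicate 5 reached the control range. Fitted without the filter on low counts, Il1rl1 had a log2 fold change of -0.87 and was not called (edgeR, adjusted p = 0.396). Mast cell and eosinophil markers, which mark cells known to carry ST2, were found for 13 of 14 genes. They summed to 3.50 to 15.8 CPM in the controls and 1.72 to 5.79 CPM in the ox-LDL libraries. Siglecf (2.51 to 6.68 and 0.261 to 0.621 CPM) led this sum in all controls but replicate 5, where Cpa3 was higher. The mast cell markers Cpa3, Cma1 and Tpsb2 overlapped between the groups. Gata2 went the other way and lay above all controls in all ox-LDL libraries but replicate 2. The part of mast cells and eosinophils in the Il1rl1 counts was not tested.

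The order of the family genes was compared by FPKM, which accounts for gene length. In the controls, the median was highest for Il1rn (136 FPKM), followed by Il1a (26.9), Il18 (19.8), Il18bp (3.92), Il1rap (3.06), Il1r1 (0.73), Il33 (0.40), Il1b (0.29), Il1rl1 (0.10) and Il1r2 (0.04). Between neighbours, the order of Il1a over Il18, Il18bp over Il1rap, Il1r1 over Il33 and Il33 over Il1b held in 3 of 5 control libraries each, and that of Il1b over Il1rl1 and Il1rl1 over Il1r2 in 4 of 5. In the ox-LDL group the order was Il1rn (547 FPKM), Il1a (347), Il18bp (157), Il1b (42.4), Il18 (15.7), Il1r1 (2.23), Il1rap (1.52), Il33 (1.14), Il1r2 (0.10) and Il1rl1 (0.03). Here Il1b was above Il18, and Il33 above Il1r2, in 5 of 5 libraries, whereas Il1r1 was above Il1rap, and Il1rap above Il33, in 3 of 5, and the order of the first 4 genes held in 4 of 5 between each pair of neighbours. In the controls, Il1rap was above Il1r1 in 5 of 5 libraries. The place of Il33 is uncertain in both groups, because its length from counts and FPKM varied from 240 to 2484 bases between libraries. In control replicate 1, 2 Il33 counts gave 0.40 FPKM, whereas 8 Il1b counts gave 0.33 FPKM.

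Il1b was less abundant than Il1a in all but 1 library. Its FPKM was 1.57%, 1.02%, 1.08% and 0.295% of that of Il1a in control replicates 1 to 4 and 48.3% in control replicate 5. In ox-LDL replicates 1 to 4 it was 7.45%, 19.7%, 12.2% and 10.4% of the Il1a level, and in ox-LDL replicate 5 it was 183%. In that library Il1b also exceeded Il1rn (190% of its FPKM), whereas in every other library it was below 17% of Il1rn.

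**Figure D3:**
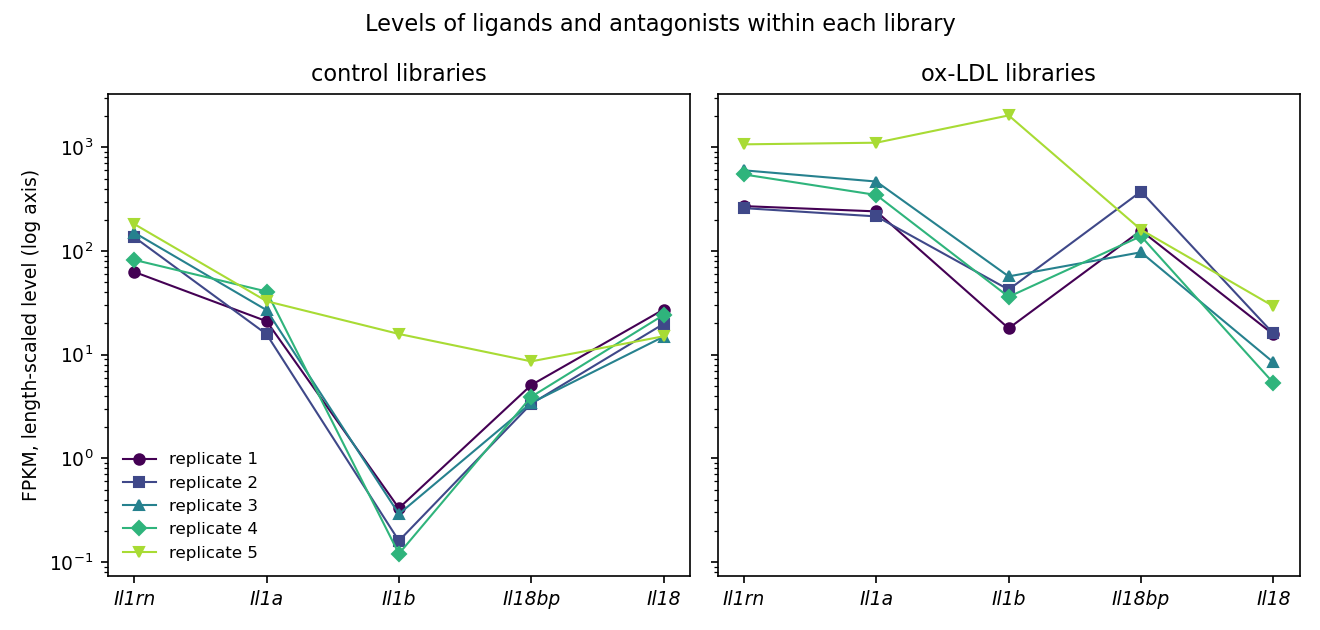
FPKM (log axis) of Il1rn, Il1a, Il1b, Il18bp and Il18 in each library, with control libraries on the left and ox-LDL libraries on the right and 1 line per replicate number. Il1b forms a trough in control replicates 1 to 4 (median over the 5 controls 0.29 FPKM) and a peak of 2030 FPKM in ox-LDL replicate 5, and Il18bp lies below Il18 in the controls and above it in the ox-LDL libraries.

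The balance of antagonist and ligand was compared within each library as the log2 ratio of counts per kilobase (0.5 counts added), which does not depend on the scaling between libraries. Il1rn exceeded Il1a in all controls, with log2 ratios of 1.58, 3.11, 2.47, 1.01 and 2.47. In the ox-LDL libraries the ratios were 0.17, 0.27, 0.36, 0.66 and -0.04, and no ox-LDL library reached the lowest control. By FPKM, Il1a was at 63.4% (replicate 4) to 104% (replicate 5) of Il1rn in the ox-LDL group. In the controls it was at 11.6% to 49.5%. This ratio leaves out Il1b, the other ligand of the same receptor. The mean log2 ratio was 2.13 ± 0.83 in the controls and 0.29 ± 0.26 in the ox-LDL group (SD, n = 5 each), a difference of -1.84 or 3.58-fold (two-sided exact permutation test, p = 0.00794, adjusted p = 0.0119 over 3 ratios). That p is the smallest that the 252 arrangements of 5 against 5 libraries allow.

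The ratio of Il18bp to Il18 moved the opposite way. Its log2 value lay between -2.61 and -0.80 in the controls and between 2.48 and 4.57 in the ox-LDL libraries, so the binding protein transcript was below the ligand in each control and above it in each ox-LDL library. The means were -2.11 ± 0.75 and 3.66 ± 0.88 (SD, n = 5 each), ratios of 0.232 and 12.6, and they differed by 5.76 on the log2 scale or 54.3-fold (two-sided exact permutation test, p = 0.00794, adjusted p = 0.0119). The ratio of the decoy receptor Il1r2 to Il1r1 rested on at most 5 Il1r2 counts per library, and the means of -3.37 ± 0.51 and -3.00 ± 2.28 did not differ beyond their spread (n = 5 each, two-sided exact permutation test, p = 0.746). Its difference of 0.37 was -0.45 without ox-LDL replicate 2 and close to 0 without ox-LDL replicate 5.

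**Figure D4:**
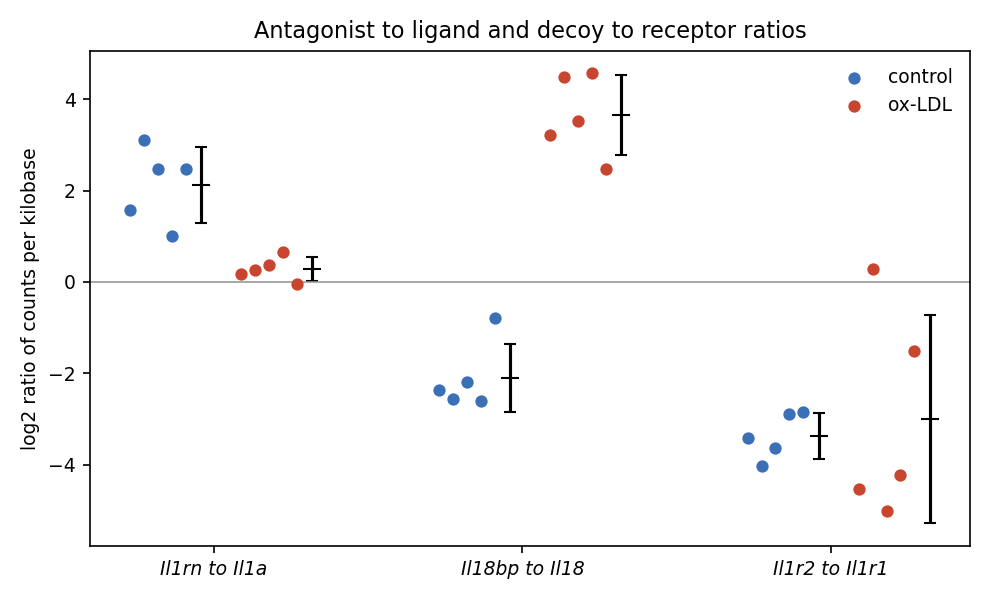
Log2 ratio of counts per kilobase within each library, 1 point per library (blue, control; red, ox-LDL), with the mean and SD beside each group. Il1rn to Il1a has means of 2.13 and 0.29, Il18bp to Il18 moves from -2.11 to 3.66 across 0, and the groups overlap for Il1r2 to Il1r1.

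The family genes also differed in how far the ox-LDL libraries spread. The highest ox-LDL library exceeded the lowest 161-fold for Il1b, 5.62- to 8.24-fold for Il1rn, Il18, Il1a, Il1r1, Il18bp and Il33, and 1.91-fold for Il1rap. Ox-LDL replicate 5 was the highest for Il1a, Il1b, Il18, Il33, Il1rn and Il1rl1, whereas ox-LDL replicate 2 was the highest for Il18bp and the lowest for Il1r1 and Il1rap. The lengths that counts and FPKM gave for Il1r1 and Il1rap had medians of 4460 and 3987 bases. With each library's trend on gene length removed, Il1r1 had a log2 fold change of 0.85 (edgeR, adjusted p = 0.128). For Il1rap it was -1.18 (edgeR, adjusted p = 1.21e-04). The part of gene length in these low values was not tested.

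For 5 family genes, the transcripts with the most similar profile over the 10 libraries were identified by the root mean square difference of the centred log2 CPM. For Il1b these included Ptgs2 (difference 1.13) and Tarm1 (1.35), beside a spread of Il1b itself of 4.29. Il1a was nearest to Cd274 (0.41), Slpi (0.49) and Irf1 (0.52), with a spread of 2.18. Il1rn was nearest to Tnfaip3 (0.27), Fam71f2 (0.28) and Pde4b (0.29), with a spread of 1.30. For Il1r1 the nearest were Nedd4 (0.28), Adam12 (0.33) and Dclk1 (0.34), with a spread of 0.97. For Il1rap they were Adam10 (0.13), Dusp3 (0.13) and Aggf1 (0.15), with a spread of 0.59.

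Other genes of the IL-1 pathway were taken from 3 lists. Of 11 further family members, 8 were found and 3 could be tested, and Il36g, which encodes an agonist of the IL-36 receptor, was called higher. It was at 0.700 ± 0.377 CPM in the controls and 23.9 ± 11.5 CPM in the ox-LDL group (SD, n = 5 each), with no overlap and a log2 fold change of 5.07 ± 0.48 (SE; edgeR, adjusted p = 2.95e-05). The IL-18 receptor chains Il18r1 and Il18rap were too low to test, at no more than 0.428 and 1.02 CPM in any library.

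In the list of 30 genes that act downstream of the IL-1 receptor, all tested, 9 were called higher and 1 lower, beside 9.4% higher and 5.35% lower of all genes tested, with a median log2 fold change of 0.52 against 0.10 over all genes. The largest changes among them were those of Nfkbia, which encodes the NF-kB inhibitor IκBα (log2 fold change 3.20, adjusted p = 8.07e-05), Sqstm1, a scaffold protein gene (2.64, 1.05e-04), and Tnfaip3, which encodes the ubiquitin-editing enzyme A20 (2.28, 2.23e-04; edgeR for all genes of this list). They were followed by Zc3h12a, the gene of an RNase that degrades cytokine mRNAs (1.99, 0.00100), Nfkbiz, a nuclear regulator of NF-kB (1.98, 5.49e-04), and Irak3, an inhibitor of IRAK signalling (1.77, 0.00781). The ubiquitin ligase gene Peli2 was called lower (-0.89, 0.00201). The number called higher was 15 without ox-LDL replicate 2, where 1755 of 12973 genes in all were higher. It was 6 to 9 with any other library left out, where 826 to 1146 genes were higher. The number called lower was 2 without ox-LDL replicate 1, where 815 of 12810 genes were lower.

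For maturation and release of IL-1 cytokines, 17 of 20 listed genes could be tested. Of these, 5 were called higher and 1 lower, beside 9.4% and 5.35% of all genes tested, with a median log2 fold change of -0.17 against 0.10 over all genes. Those called higher were Mefv (3.52, adjusted p = 0.00363), Nlrp3 (2.88, 8.99e-04), Casp4 (2.36, 0.00170), Panx1 (1.42, 0.00529) and Gsdmd (1.22, 0.00360), which encode inflammasome sensors, the mouse caspase-11, a membrane channel and a pore-forming protein. Gsdme, another pore-forming protein gene, was called lower (-2.27, 0.00131; edgeR for all 6). The number called higher was 2 without control replicate 2 or 4, where 860 of 12936 and 826 of 12927 genes in all were higher. It was 3 without control replicate 1 or 3, where 865 of 12943 and 922 of 12876 genes were higher. The number called lower was 2 without ox-LDL replicate 1 or 2, where 815 of 12810 and 1502 of 12973 genes were lower.

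**Figure D5:**
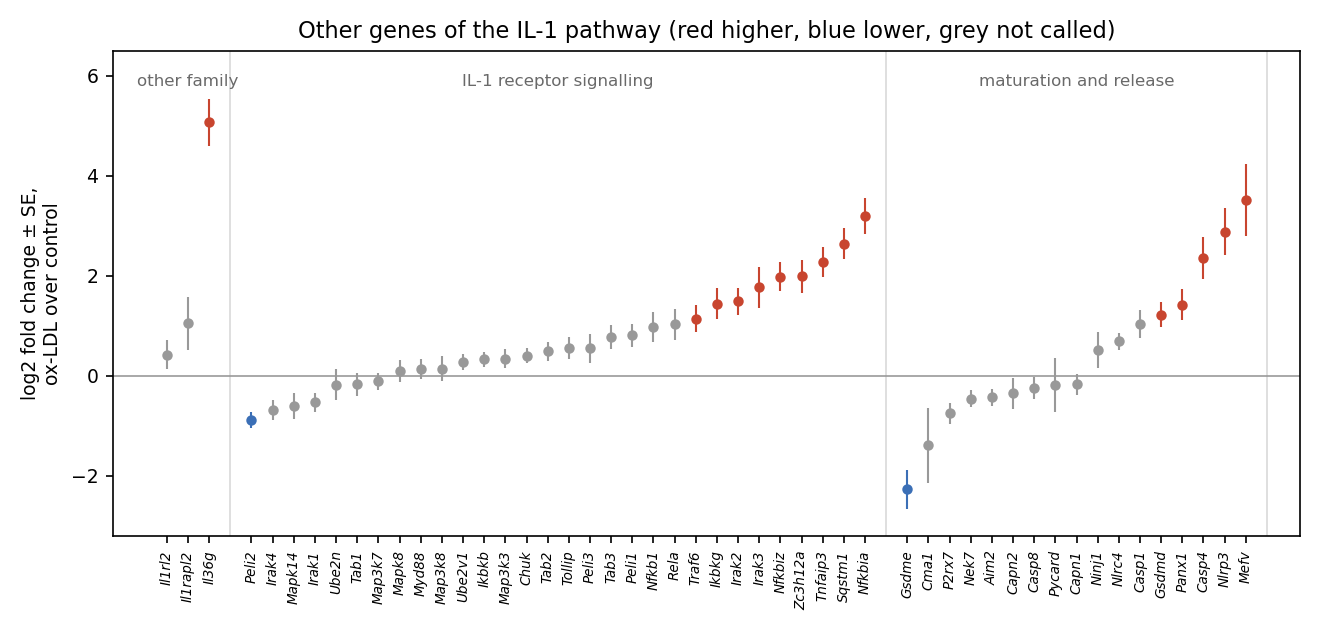
Log2 fold change ± SE (ox-LDL over control, edgeR) of the genes tested from the lists of other family members, IL-1 receptor signalling and maturation and release, ordered within each list (red, called higher; blue, called lower; grey, not called). Of the 30 signalling genes, 20 were not called, and Nfkbia at 3.20 and Peli2 at -0.89 are the extremes of their list.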

How the data were processed

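RNA-seq was performed in 10 libraries of peritoneal macrophages, 5 control and 5 ox-LDL, on the BGISEQ-500 platform. The authors checked reads with FastQC, aligned them to mm9 with HISAT2 2.0.5, sorted them with SAMtools 1.4, assembled them with StringTie 1.3.3.13 and used scater for quality control, per the study's methods and the submitters' processing notes. The authors deposited an estimated count per gene, not normalized (13.6% of values were not whole), and a length-scaled value of unnamed unit. How reads were counted is not given in the sources used here. Over 5044 genes, count divided by that deposited value and by the library total gave a length that varied by a median of 0.966% between libraries, so the deposited values were treated as FPKM.

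Rows of 9788 circular RNAs (1.44% to 2.24% of the counts) were left out. Of 23382 rows with NCBI identifiers, 22818 were paired with a symbol through RefSeq names (GRCm38.p6) and 6318 rows had identifiers without a symbol and entered the fit. Loci come from the GENCODE annotation of mm9. Counts were rounded, filtered with edgeR's filterByExpr, normalized by TMM and tested with edgeR 4.0.16 (quasi-likelihood, robust) in R 4.3.3 over 12654 genes, with Benjamini-Hochberg adjustment; calls had an adjusted p below 0.01. The SE is the absolute log2 fold change divided by the square root of F. The biological coefficient of variation was 37.3%. Ratios were compared by exact permutation over libraries. Procedures were tested on simulated data.

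Groups and replicate numbers came from the labels. All 10 family genes are named, with up to 6 called genes per pathway list and direction, and the 3 nearest profiles of 5 family genes. Of these profiles, 1 is not reported here. The family genes, the lists and the motifs were chosen with earlier results of these data known, and the NF-kB motif was tightened after a looser form matched 51.0% of promoters. The alternatives were DESeq2 1.42.0, limma-voom and limma on log2(FPKM + 1) (limma 3.58.1), other normalizations, filters and thresholds, all rows of the table, removal of each library's trend on gene length, a block for the replicate number, fits without 1 library at a time, and a fit without both libraries numbered 5. Intervals cover these libraries only, and the floor of 3 counts covers counting error only.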

Additional observations from a re-analysis of the deposited data

Results flagged for a closer look

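In 7 of 26 groups of 5 libraries that were examined (10 genes and 3 ratios in each condition), 1 library lay far from the others, with a gap to its neighbour above 0.71 of the group's range. A rate of 1 in 20 would give about 1.3 such groups. That rate does not allow for the skew of CPM values or for the genes that the ratios share with the single levels. No excess over chance can therefore be read from the number.

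Ox-LDL replicate 5 was far above its group for Il1a (2445 CPM, next library 812, gap share 0.789), for Il1b (2957 CPM, next 88.0, share 0.976) and for Il1rl1 (0.836 CPM, next 0.239, share 0.753). Control replicate 5 was far above the other controls for Il1b (16.8 CPM, next 0.443, share 0.983) and had the highest log2 ratio of Il18bp to Il18 among them (-0.80, next -2.19, share 0.766). Il18bp was far higher in ox-LDL replicate 2 (808 CPM) than in the next library (242, share 0.817). Il1rl1 was highest in control replicate 4 (0.876 CPM, next 0.471, share 0.745), a gene with at most 17 counts in any library.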

How the results depend on the processing

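Il1a, Il1rn and Il18bp were called in all 22 alternatives of the fit, and Il1rap in 19 of 22. With an adjusted p below 0.05, 5 family genes were higher in place of 3. The number lower was 0 in place of 1 with library size alone, the replicate block, limma on log2(FPKM + 1) or an absolute log2 fold change above 2. Il1b was called in 4 of 21 alternatives that gave an adjusted p, from 7.07e-05 with the replicate block to 0.0969, and Il33 in 2 of 21 (0.00201 to 0.0737). Il18 changed sign with the gene length trend removed (0.0022) and ranged from -0.47 to 0.12 with 1 library left out. Of the signalling genes (9 higher, 1 lower), 5 were higher with library size alone and 3 above a log2 fold change of 2; 2 were lower in DESeq2 and below 0.05, 3 with the length trend removed, and 0 with library size alone, the block, limma or the fold threshold. With 1 library left out, 6 to 15 were higher and 1 to 2 lower. Of the maturation genes (5 higher, 1 lower), 3 were higher with library size alone, the block or the fold threshold, and 3 were lower in DESeq2 or with the trend removed and 2 below 0.05. With 1 library left out, 2 to 6 were higher and 1 to 2 lower. The ratio of Il1r2 to Il1r1 reversed with 3 counts added (-0.21) and ranged from -0.45 to 0.87 with 1 library left out. The cause of these shifts was not tested.

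Over all genes, 1866 were called, against 3009 in DESeq2, 2867 with the length trend removed and 3257 without ox-LDL replicate 2. Deviations of same-numbered libraries correlated at 0.02, -0.27, 0.44, -0.28 and 0.41, above 0.1 for numbers 3 and 5 but not for all 5, so the numbers were not taken to pair the libraries. The replicate block called 1434 genes, and Il1rap (adjusted p = 0.0149) left and Il1b joined the family genes called. An exact paired sign-flip permutation test gave p = 0.0625 for the differences of -1.84 (Il1rn to Il1a) and 5.76 (Il18bp to Il18), the smallest that 5 pairs allow. Genes with few counts, Il1r2, Il1rl1 and Il33, are limited by depth.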
